A study of Mus musculus with 12 samples.

Results

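Ikzf1, Cd3d and Ptprc are genes that white blood cells use, and they were followed by name through 12 libraries of 5-hydroxymethylcytosine (5hmC) from mouse liver, heart and embryonic stem cells; they are 3 of the 13581 genes listed for each library. Whole liver and whole heart of C57BL6/j mice were taken at embryonic day 14 (E14, 1 library per tissue), in newborns of day 1 to 2 (P1, 2 libraries per tissue) and at 8 weeks (W8, 2 libraries per tissue). The stem cells (ESC, 2 libraries) were the EB5 line of 129/Ola background, kept with LIF. Neither tissues nor cells carried a labelled mutation or drug treatment. The labels do not say that replicates were separate animals or cultures, so the spread behind each p-value may be technical. E14 and W8 libraries were read from 1 end at 50 bp and P1 and ESC libraries from both ends at 75 bp, so read format goes with age and cannot be told apart from it in P1 against E14 or W8. Strain cannot be told apart from tissue against ESC.

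5hmC is made from methylated cytosine by the Tet enzymes and is commonly found along the bodies of genes that a cell type uses. Ikzf1 encodes Ikaros, a zinc finger transcription factor needed for lymphocytes to form. Cd3d encodes the delta chain of CD3, the signalling part of the T cell receptor, and Ptprc encodes CD45, a receptor-type tyrosine phosphatase found on nucleated blood cells. Before birth the liver is a main site of blood formation, a role that passes to the bone marrow around birth, and the adult liver keeps resident macrophages and lymphocytes. Whole tissue was measured, so the share of blood cells, 5hmC per blood cell and 5hmC in other cells cannot be told apart in any tissue value given here.

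The level of a gene body is the deposited FPKM, a read count scaled by library depth and region length, and it is relative to other regions rather than a share of cytosines. The tables hold 11 libraries with 604012 to 5761636 reads over gene bodies and medians of 19.0 to 207 reads per body. W8 heart replicate 2 stood apart, with 142778 reads, a median of 5.04 reads per body and 9.94% of bodies at 0. Replicates correlated across genes at r = 0.506 in W8 heart and at 0.788 to 0.969 in the other replicated groups; genes are not independent replicates. The tissue labels were checked on marker genes: 9 of 13 hepatocyte genes were higher and 9 of 12 cardiomyocyte genes lower in W8 liver than in W8 heart, with 0 in the opposite direction. At P1 the counts were 7 of 13 and 4 of 12, again with 0 opposite (limma). Over all genes 21.3% passed as higher and 9.49% as lower in liver at W8, and 1.93% and 0.349% at P1.

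The 3 genes differ in size and in the sequence before their starts. In mm9, and on the chromosomes that RefSeq gives, the Ikzf1 body spans 84714 bp (chr11:11588216-11672929), the Ptprc body 110445 bp (chr1:139959438-140069882) and the Cd3d body only 3260 bp (chr9:44791876-44795135). Cd3d is shorter than nearly all genes listed, of which 5.42% have a shorter body, and its levels rest on 1 to 23 reads. The promoter windows of 4000 bp lie directly beside the bodies. They run from 11584216 to 11588215 for Ikzf1, from 44787876 to 44791875 for Cd3d and from 140069883 to 140073882 for Ptprc, and the Cd3d window shares 2639 bp (66.0%) with the window of Cd3g, the neighbouring CD3 gene.

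5hmC forms almost wholly at CpG sites, so the 250 bases before each gene's first listed RefSeq start (GRCm38.p6) are shown with every CG in capitals; CG reads the same on both strands. The stretches are chr11:11685675-11685924 on the plus strand for Ikzf1, chr9:44981536-44981785 on the plus strand for Cd3d and chr1:138175306-138175555 on the minus strand for Ptprc.
Ikzf1: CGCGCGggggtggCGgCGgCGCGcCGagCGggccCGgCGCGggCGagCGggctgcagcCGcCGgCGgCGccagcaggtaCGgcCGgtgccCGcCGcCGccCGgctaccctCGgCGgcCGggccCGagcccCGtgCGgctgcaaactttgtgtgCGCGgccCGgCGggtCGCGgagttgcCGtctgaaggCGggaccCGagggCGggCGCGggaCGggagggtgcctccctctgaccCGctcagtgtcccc
Cd3d: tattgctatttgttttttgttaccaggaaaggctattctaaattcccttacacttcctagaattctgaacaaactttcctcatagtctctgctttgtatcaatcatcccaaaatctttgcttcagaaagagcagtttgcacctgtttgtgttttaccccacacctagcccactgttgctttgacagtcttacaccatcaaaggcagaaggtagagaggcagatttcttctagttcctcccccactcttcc
Ptprc: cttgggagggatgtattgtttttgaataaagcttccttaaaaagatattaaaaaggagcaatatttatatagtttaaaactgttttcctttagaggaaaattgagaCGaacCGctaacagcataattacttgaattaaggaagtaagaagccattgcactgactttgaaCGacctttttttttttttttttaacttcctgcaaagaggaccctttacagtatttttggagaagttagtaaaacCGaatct
The Ikzf1 stretch holds 44 CG at a GC content of 82%, and 0.539% of the 32851 RefSeq promoters hold at least as many. The Cd3d stretch holds 0, which is true of 7.87% of promoters, and its GC content is 41.2%. Ptprc has 4 CG and a GC content of 31.6%, against a median of 6 CG and 52.4% over all promoters, of which 92.1% hold at least 1 CG. Ikzf1 and Ptprc each have a second listed start, with 1 and 2 CG before it. These counts describe sequence only.

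Across the liver course Ikzf1 had its highest 5hmC at P1 and its lowest at W8. Its gene body had 0.649 FPKM in E14 liver, 1.08 and 0.879 FPKM in P1 liver, and 0.121 and 0.144 FPKM in W8 liver. In heart it had 0.195 FPKM at E14, 0.260 and 0.294 FPKM at P1, and 0.285 and 0.758 FPKM at W8, and the ESC libraries had 0.316 and 0.402 FPKM. Every E14 and P1 liver library thus lay above every ESC, E14 heart and P1 heart library, and both W8 liver libraries lay below all others. The W8 heart replicates differ: the value of 0.758 comes from the shallow library and rests on 21 reads (exact 95% Poisson interval 0.471 to 1.16), against 175 reads and an interval of 0.244 to 0.330 in replicate 1. Intervals cover counting error only. Ordered by group mean, P1 liver (0.978 ± 0.140, SD, n = 2) led E14 liver, W8 heart (0.521 ± 0.334), ESC (0.359 ± 0.0608), P1 heart (0.277 ± 0.0243), E14 heart and W8 liver (0.132 ± 0.0167). The range of W8 heart overlapped E14 liver and ESC, and no other neighbours in that order overlapped. In W8 liver Ikzf1 ranked among the genes with the least 5hmC, at the 4.93 and 6.64 percentiles of its library, against the 56.0 and 48.0 percentiles in P1 liver and 68.5 in E14 liver.

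**Figure D1:**
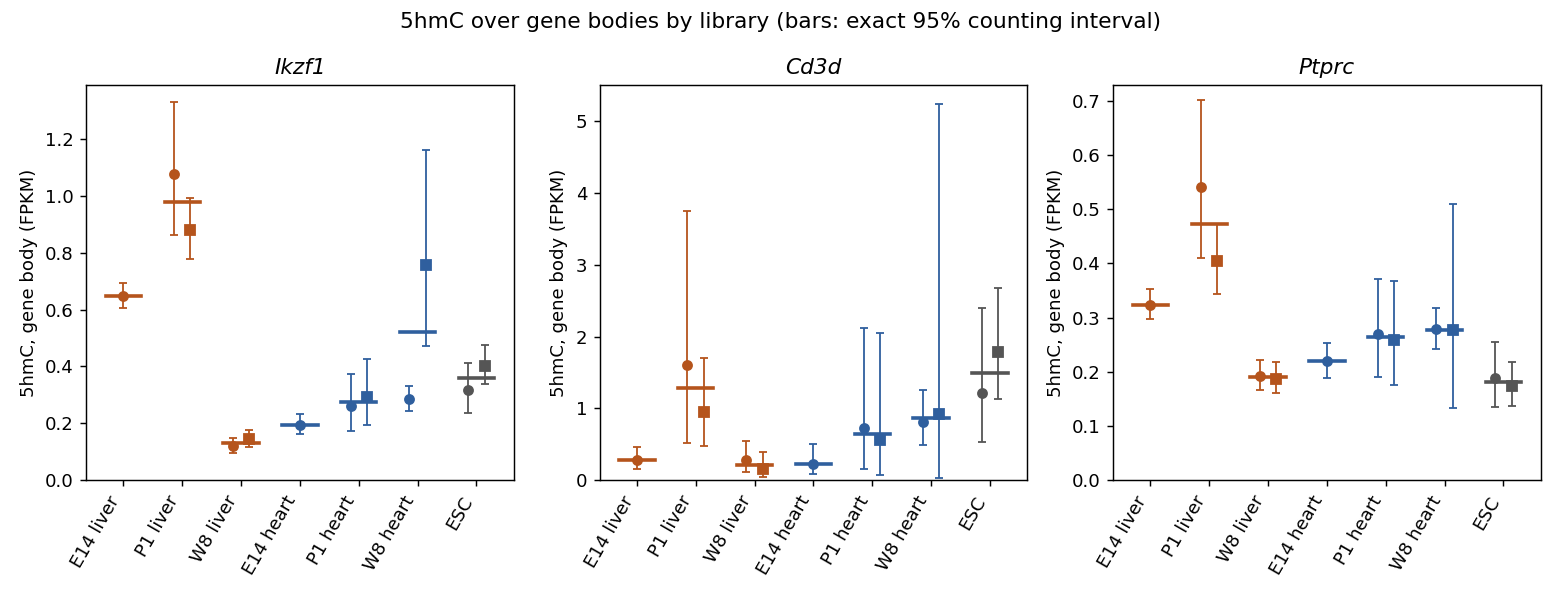
Gene-body 5hmC (FPKM, y axis, from 0 and on a separate scale in each panel) of Ikzf1, Cd3d and Ptprc in each of the 12 libraries, by group along the x axis. Circles are replicate 1, squares replicate 2, vertical bars exact 95% counting intervals and horizontal bars group means; all 3 genes are higher in both P1 liver libraries than in both W8 liver libraries.

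Cd3d followed another order, with ESC at the top. Its body had 0.275 FPKM in E14 liver, 1.61 and 0.948 FPKM in P1 liver, and 0.277 and 0.151 FPKM in W8 liver. In heart it had 0.231 FPKM at E14, 0.723 and 0.566 FPKM at P1, and 0.808 and 0.927 FPKM at W8, and the ESC libraries had 1.22 and 1.78 FPKM. E14 liver, E14 heart and both W8 liver libraries were therefore low, and ESC overlapped P1 liver at the top. The reads behind these values are few: 14 in E14 liver, 5 and 11 in the P1 livers, 8 and 4 in the W8 livers, 6 in E14 heart, 3 and 2 in P1 heart, 19 and 1 in W8 heart, and 8 and 23 in ESC. The single read of W8 heart replicate 2 allows 0.0238 to 5.24 FPKM, so that library does not place the gene. By group mean the order was ESC (1.50 ± 0.398, SD, n = 2), P1 liver (1.28 ± 0.467), W8 heart (0.867 ± 0.0845), P1 heart (0.644 ± 0.111), E14 liver, E14 heart and W8 liver (0.214 ± 0.0890). ESC overlapped P1 liver and E14 heart lay within the range of W8 liver, while the other neighbours did not overlap between libraries, though their counting intervals overlapped.

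Ptprc varied least and was low everywhere. Its body had 0.324 FPKM in E14 liver, 0.541 and 0.404 FPKM in P1 liver, and 0.193 and 0.188 FPKM in W8 liver. In heart it had 0.219 FPKM at E14, 0.270 and 0.259 FPKM at P1, and 0.278 and 0.277 FPKM at W8, and the ESC libraries had 0.189 and 0.174 FPKM. P1 liver was highest, E14 liver next, the heart libraries lay between 0.219 and 0.278, and W8 liver and ESC were lowest and overlapped. Its highest library had 3.12 times the level of its lowest, against 8.92 times for Ikzf1 and 11.8 times for Cd3d. Within its libraries Ptprc stayed between the 4.50 and 23.8 percentiles of all genes. Group means were 0.473 ± 0.0966 in P1 liver, 0.190 ± 0.00358 in W8 liver, 0.264 ± 0.00802 in P1 heart, 0.278 ± 0.00100 in W8 heart and 0.181 ± 0.0106 FPKM in ESC (SD, n = 2 each).

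All 3 genes were lower in W8 liver than in P1 liver, ages whose libraries also differ in read format. W8 liver minus P1 liver was -2.34 ± 0.37 for Ikzf1 (log2 ± SE, adjusted p = 0.0154), -2.22 ± 0.33 for Cd3d (adjusted p = 0.0139) and -1.04 ± 0.17 for Ptprc (adjusted p = 0.0175), by limma on log2(FPKM + 0.0746) with Benjamini-Hochberg adjustment over 13484 gene bodies. In FPKM the means of P1 liver were 7.38, 5.96 and 2.49 times those of W8 liver. The Cd3d values rest on 5 and 11 reads in P1 liver and 8 and 4 in W8 liver. Over all genes 9.84% passed at 0.05, 8.91% as lower in W8 liver, and the median difference was -0.23. The calls depend on single libraries: Ikzf1 lost it without any 1 of the 4 liver libraries (-2.48 to -2.21), and Cd3d (-2.54 to -1.86) and Ptprc (-1.05 to -0.86) lost it without P1 liver replicate 1 or either W8 liver library. All 3 stayed lower in W8 liver in each of these fits, which leave a group with 1 library. Here and in each later comparison with such a loss, the number of calls over all genes depended on the library left out as well. After quantile normalization Ikzf1 (-1.95) and Ptprc (-0.66) no longer passed.

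Ikzf1 was also lower in W8 liver than in E14 liver, where read format is the same. The difference was -1.81 ± 0.46 (adjusted p = 0.0348 by limma), and the single E14 library had 4.90 times the mean of W8 liver. Cd3d (-0.31 ± 0.41, adjusted p = 0.615) and Ptprc (-0.59 ± 0.21, adjusted p = 0.0904) did not pass. Of all genes 20.7% passed, 2.83% as lower in W8 liver, and the median difference was 0.47 in the other direction. E14 liver has 1 library and is assumed to vary like the replicated groups. Ikzf1 lost its call without either W8 liver library (-1.89 to -1.73) and after quantile normalization (-2.33), and Ptprc passed after centring each library on its median (-1.10), with array weights (-0.59) and without W8 heart replicate 2 (-0.59 ± 0.19).

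Between E14 and P1 liver only Cd3d passed the threshold, on 14 reads in E14 liver and 5 and 11 in P1 liver. It was higher in P1 liver than in E14 liver by 1.91 ± 0.41 (adjusted p = 0.0220 by limma), whereas Ikzf1 (0.53 ± 0.46, adjusted p = 0.395) and Ptprc (0.45 ± 0.21, adjusted p = 0.153) did not pass. Of all genes 26.1% passed, 25.4% as higher in P1 liver, and the median gene was 0.71 higher in P1 liver, so Ikzf1 and Ptprc moved less than the median gene. With each library centred on its median the values were 1.14 for Cd3d, which no longer passed, and -0.23 for Ikzf1 and -0.32 for Ptprc, so the sign of the last pair depends on the scaling. Cd3d also lost its call without either P1 liver library (1.55 to 2.27) and after quantile normalization (1.91).

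No change with age passed in heart. W8 heart minus E14 heart was 1.02 ± 0.46 for Ikzf1 (adjusted p = 0.424), 1.62 ± 0.41 for Cd3d (adjusted p = 0.399) and 0.26 ± 0.21 for Ptprc (adjusted p = 0.577, limma). In that comparison 0% of genes passed at 0.05 by limma, and 1638 had an unadjusted p under 0.05. W8 heart minus P1 heart was 0.64 ± 0.37, 0.40 ± 0.33 and 0.05 ± 0.17 for Ikzf1, Cd3d and Ptprc, with adjusted p of 0.301, 0.464 and 0.862, and 0.0148% of genes passed. The Ikzf1 values rest on the shallow W8 heart replicate 2: without it they were 0.41 ± 0.24 over E14 and 0.03 ± 0.21 over P1. Without replicate 1, which leaves the shallow library alone, Ikzf1 passed in both (1.63 and 1.25) and Cd3d passed over E14 (1.71).

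**Figure D2:**
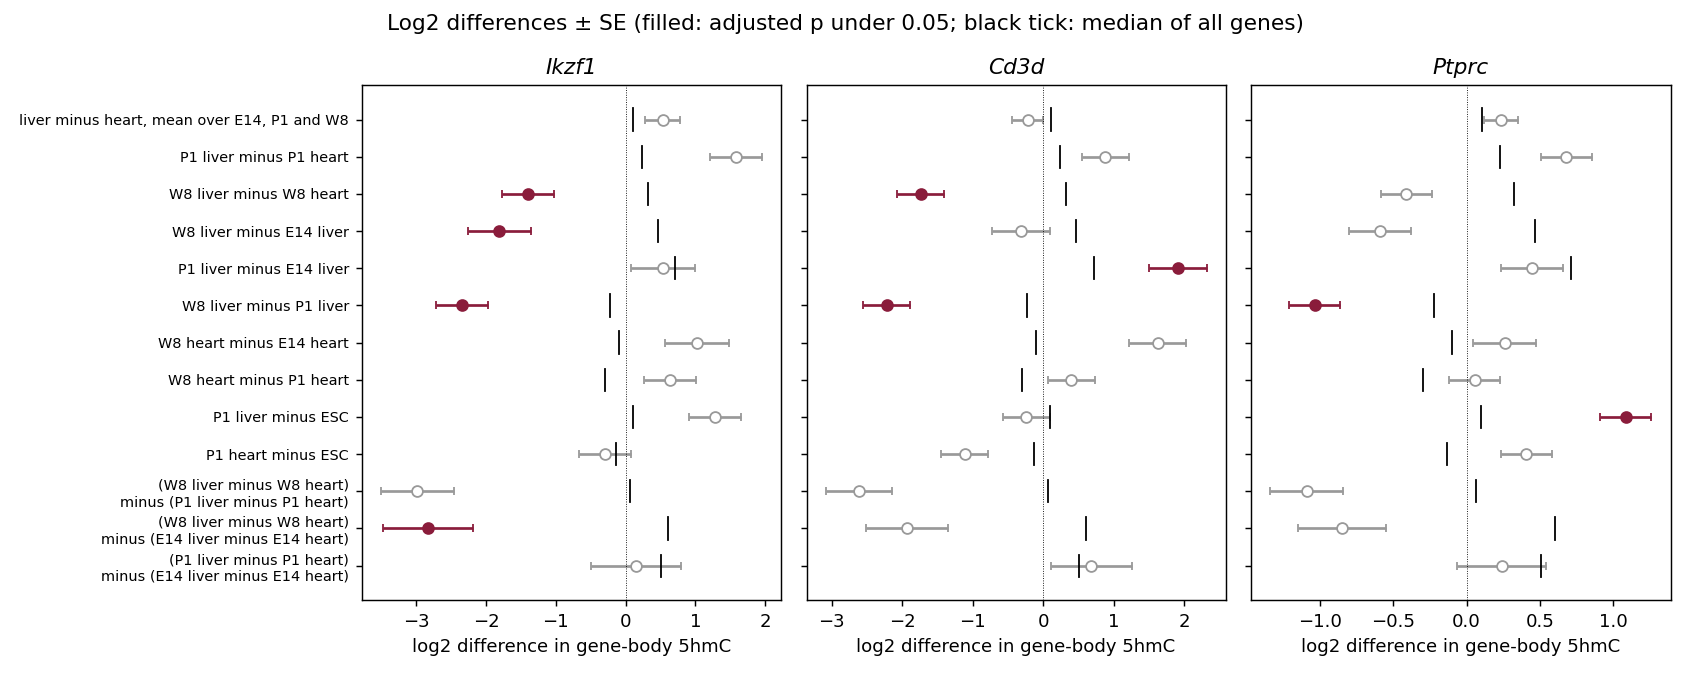
Log2 difference in gene-body 5hmC (x axis) of Ikzf1, Cd3d and Ptprc in each of the 13 comparisons (rows), as points with bars of ± 1 SE; filled points have an adjusted p under 0.05 (limma) and black ticks mark the median of all genes. All 3 genes are filled and left of the tick in W8 liver minus P1 liver, and none is filled in either heart course.

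Liver stood above heart in newborns and below it in adults for Ikzf1. P1 liver minus P1 heart was 1.58 ± 0.37 for Ikzf1 (adjusted p = 0.0707), 0.88 ± 0.33 for Cd3d (adjusted p = 0.166) and 0.68 ± 0.17 for Ptprc (adjusted p = 0.0812, limma). None passed, although the 2 liver values exceeded both heart values in each gene, and 2.28% of all genes passed. Without W8 heart replicate 2, Ikzf1 (1.58 ± 0.17) and Ptprc (0.68 ± 0.16) passed at the same difference, and so did 22.4% of all genes. With array weights Ikzf1 passed as well.

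In adults the direction was the other way. W8 liver minus W8 heart was -1.40 ± 0.37 for Ikzf1 (adjusted p = 0.0307) and -1.74 ± 0.33 for Cd3d (adjusted p = 0.0123, limma), both past the threshold, and -0.41 ± 0.17 for Ptprc (adjusted p = 0.111). The Cd3d values rest on 8 and 4 reads in W8 liver and 19 and 1 in W8 heart. The fit takes no account of read counts, so its SE can understate their counting error. Of all genes 30.8% passed, 9.49% as lower in liver, and the median gene was 0.32 higher in liver. Without W8 heart replicate 2 the Ikzf1 difference shrank to -0.80 ± 0.21 and Cd3d stood at -1.65 ± 0.42, both still past the threshold; without replicate 1 Ikzf1 was at -2.01. Both genes lost the call without either W8 liver library (Ikzf1 -1.49 to -1.32, Cd3d -2.06 to -1.42) and with array weights, and Ptprc passed after median centring (-0.73).

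At E14, with 1 library per tissue and no test, Ikzf1 had 3.33 times as much 5hmC in liver as in heart, Ptprc 1.48 times and Cd3d 1.19 times. Averaged over the 3 ages, liver minus heart was 0.53 ± 0.25 for Ikzf1 (adjusted p = 0.207), -0.22 ± 0.22 for Cd3d (adjusted p = 0.550) and 0.24 ± 0.12 for Ptprc (adjusted p = 0.232, limma), where 11.7% of genes passed. The Ikzf1 average was 0.74 ± 0.12 and passed without W8 heart replicate 2. An average over ages hides the opposite signs at P1 and W8 described above.

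The change of the liver against heart difference was tested directly. From E14 to W8 it was -2.83 ± 0.65 for Ikzf1 (adjusted p = 0.0349, limma), a comparison within the single-end libraries that 14.8% of genes passed, 2.15% as negative and 12.7% as positive; Cd3d (-1.93 ± 0.58, adjusted p = 0.0633) and Ptprc (-0.85 ± 0.30, adjusted p = 0.0959) did not pass. The Ikzf1 value was -2.22 ± 0.32 without W8 heart replicate 2 and still passed, and it lost the call without either W8 liver library (-2.91 to -2.75). From P1 to W8 the change was -2.98 ± 0.53 for Ikzf1 (adjusted p = 0.0968), -2.61 ± 0.47 for Cd3d (adjusted p = 0.101) and -1.09 ± 0.25 for Ptprc (adjusted p = 0.107), against 0.0148% of genes past the threshold. All 3 passed when W8 heart replicate 1 was left out (-3.59, -2.71 and -1.09) and none when replicate 2 was. From E14 to P1 it was 0.15 ± 0.65, 0.68 ± 0.58 and 0.24 ± 0.30, and 0% of genes passed by limma, with 2768 at an unadjusted p under 0.05.

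Against stem cells of the same read format, Ptprc was higher in P1 liver by 1.09 ± 0.17 (adjusted p = 0.0130, limma). Ikzf1 was at 1.28 ± 0.37 (adjusted p = 0.0600) and Cd3d at -0.24 ± 0.33 (adjusted p = 0.670). Of all genes 15.4% passed, 10.4% as higher and 5.05% as lower in P1 liver. Ptprc lost its call without either ESC library or P1 liver replicate 1 (0.91 to 1.13), and Ikzf1 passed without W8 heart replicate 2 (1.28 ± 0.17), with array weights and with the larger pseudocount (0.88). P1 heart minus ESC passed for none of them at -0.30 ± 0.37 for Ikzf1 (adjusted p = 0.625), -1.12 ± 0.33 for Cd3d (adjusted p = 0.0691) and 0.41 ± 0.17 for Ptprc (adjusted p = 0.160), against 12.7% of all genes. Cd3d passed there without W8 heart replicate 2 (-1.12 ± 0.34) and with the larger pseudocount (-0.87), and Ptprc after median centring (0.60). The P1 liver comparisons with ESC, P1 heart, E14 liver and W8 liver share the same 2 P1 liver libraries.

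The promoter windows hold 0 to 35 reads for these genes, and no difference in them passed. Ikzf1 had 0.469 FPKM in E14 liver (29 reads), 1.31 and 0.913 FPKM in P1 liver (5 and 13 reads), and 0.253 and 0.0608 FPKM in W8 liver (9 and 2 reads). In heart the Ikzf1 window had 0.188 FPKM at E14, 0.589 and 0 FPKM at P1 and 0.516 and 0.756 FPKM at W8, and ESC had 0.744 and 0.442 FPKM. The listed values of the window thus had the same order of ages in liver as the body, P1 above E14 above W8. The counting interval of E14 liver, 0.313 to 0.671 FPKM, overlapped those of both P1 livers, 0.426 to 3.06 and 0.486 to 1.56 FPKM. It also overlapped that of W8 liver replicate 1, 0.116 to 0.481 FPKM, but not that of replicate 2, 0.00747 to 0.223 FPKM. These reads therefore do not settle the order of the ages. W8 liver minus P1 liver was -2.49 ± 1.08 and did not pass. The Cd3d window had 0.563 FPKM in E14 liver, 0 and 0.632 FPKM in P1 liver and 0.253 and 0.123 FPKM in W8 liver. The Ptprc window had 0.435 FPKM in E14 liver, 0 and 0.421 FPKM in P1 liver and 0.226 and 0.0930 FPKM in W8 liver, and neither it nor the Cd3d window separated P1 from W8. In heart Ptprc was listed at 0 in both P1 libraries and W8 replicate 2, with 0.0960 FPKM at E14 and 0.481 FPKM in W8 replicate 1; Cd3d had 0.187 FPKM at E14, 0.393 and 0.692 FPKM at P1, and 0.550 and 0 FPKM at W8. ESC had 0.992 and 0.568 FPKM in the Cd3d window (8 and 9 reads) and 0.248 and 0.505 FPKM in the Ptprc window (2 and 8 reads). The Ptprc mean was thus higher in ESC than in P1 liver (0.376 against 0.211 FPKM), unlike in the body, though the libraries overlapped. In E14 liver the windows had 2.49 (Ikzf1), 3.01 (Cd3d) and 4.53 (Ptprc) times the level of E14 heart, with 6, 6 and 3 reads in heart. Over all promoter windows 0 to 22 of 13504 passed per comparison.

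**Figure D3:**
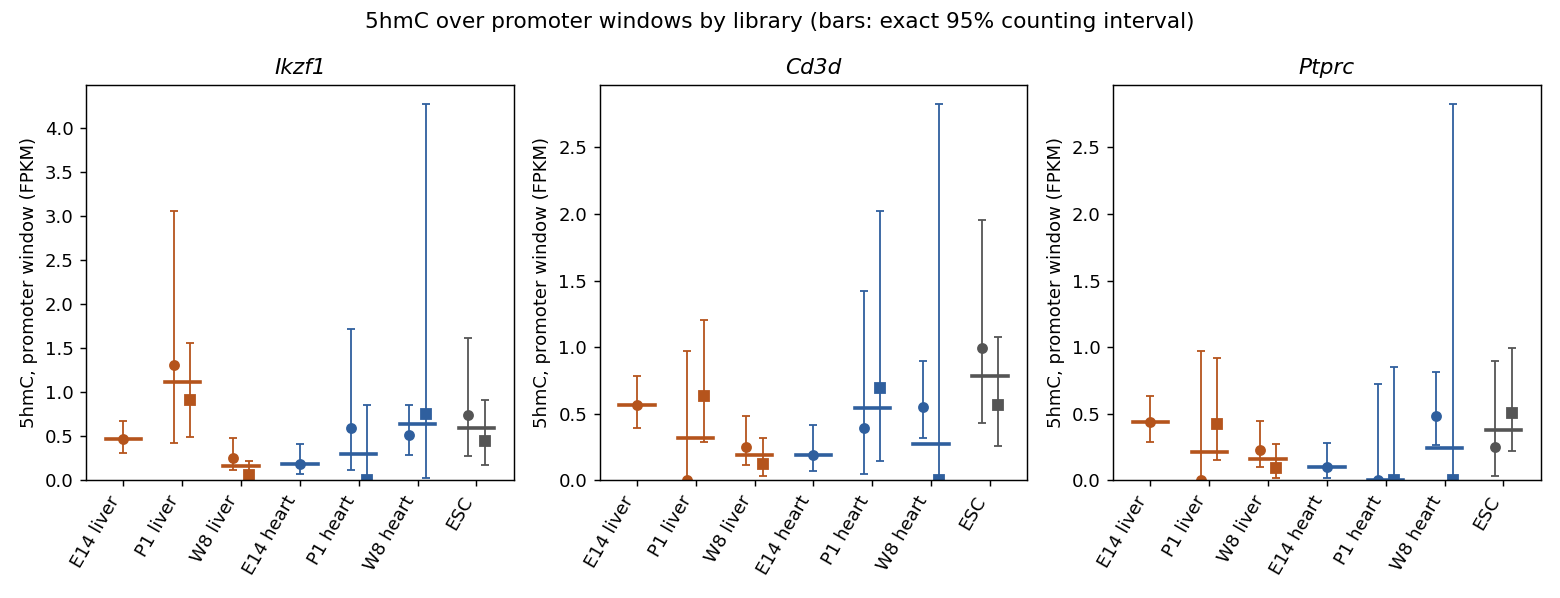
5hmC over the 4000 bp promoter windows (FPKM, y axis, from 0 and on a separate scale in each panel) of Ikzf1, Cd3d and Ptprc in the 12 libraries, by group along the x axis; symbols as in the plot of gene bodies. Intervals overlap between most libraries, and the windows are listed at 0 in 1 library for Ikzf1, 2 for Cd3d and 4 for Ptprc.

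Among the partners of Cd3d, the Cd247 gene, which encodes the zeta chain of the T cell receptor, passed in some comparisons and Cd3e and Cd3g in none. Cd247 had 0.603 and 0.589 FPKM in W8 liver, against 1.47 and 1.29 FPKM in P1 liver and 0.723 FPKM in E14 liver. It fell by 1.12 ± 0.14 on the log2 scale in W8 liver minus P1 liver (adjusted p = 0.0108, limma), was higher in P1 liver than in E14 liver by 0.86 ± 0.18 (adjusted p = 0.0205) and lower in W8 liver than in W8 heart at -0.51 ± 0.14 (adjusted p = 0.0367), the last not past the threshold without W8 heart replicate 2. In P1 liver minus E14 liver the median of all genes was 0.71 and 26.1% passed, so Cd247 was near the typical gene there; 8.91% of all genes passed as lower in W8 liver minus P1 liver and 9.49% in W8 liver minus W8 heart. Cd3e (-0.65 ± 0.27, adjusted p = 0.176) and Cd3g (-0.68 ± 0.35, adjusted p = 0.275), which encode the epsilon and gamma chains, were negative without passing in W8 liver minus P1 liver.

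In the Ikaros family, Ikzf2 (Helios) and Ikzf3 (Aiolos), transcription factors of lymphocytes, fell in W8 liver relative to P1 liver, at -0.96 ± 0.20 (adjusted p = 0.0312, limma) and -1.01 ± 0.24 (adjusted p = 0.0462). Ikzf2 was also lower in W8 liver than in E14 liver (-1.09 ± 0.25, adjusted p = 0.0267) and in W8 heart (-0.91 ± 0.20, adjusted p = 0.0184). It had 0.202 and 0.207 FPKM in W8 liver, 0.474 and 0.465 FPKM in P1 liver, 0.521 FPKM in E14 liver, and 0.526 and 0.382 FPKM in W8 heart. Ikzf4 (-0.07 ± 0.36, adjusted p = 0.937) and Ikzf5 (0.44 ± 0.27, adjusted p = 0.360) did not pass in W8 liver minus P1 liver. Ikzf1 had the lowest level of the 5 family genes in both W8 liver libraries and, at 1.08 FPKM, stood behind only Ikzf4 (1.20 FPKM) in P1 liver replicate 1. Of the 17 other receptor-type phosphatase genes tested beside Ptprc, 3 fell in W8 liver minus P1 liver: Ptpre (-1.04 ± 0.18), Ptpru (-0.87 ± 0.21) and Ptprr (-0.85 ± 0.19). The list had a median of -0.38, against -0.23 over all genes, of which 8.91% passed as lower. Without W8 heart replicate 2, 7 fell and 1 rose, beside 21.2% and 3.72% of all genes.

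Genes of other blood cell lists fell in W8 liver minus P1 liver in shares that differed by list, where 8.91% of all genes passed as lower and the median of all genes was -0.23. In the 6 lists that follow, 0 genes passed as higher by limma, and 0 were higher at an unadjusted p under 0.05. Of 20 T cell signalling and surface genes 8 fell (list median -0.98), among them Rhoh (-1.64 ± 0.24), Ubash3a (-1.55 ± 0.31) and Lcp2 (-1.50 ± 0.33), an adaptor of T cell receptor signalling. Of 17 lymphoid transcription factor genes 6 fell (median -0.96), with Myb (-1.91 ± 0.27), Runx3 (-1.89 ± 0.23), Bcl11a (-1.87 ± 0.18) and Runx1 (-1.47 ± 0.17) largest. Of 18 pan-leukocyte genes 9 fell (median -1.31), among them Cd37 (-1.91 ± 0.29), Rac2 (-1.90 ± 0.19) and Selplg (-1.61 ± 0.32). Rac2, a GTPase of blood cells, had 0.581 and 0.521 FPKM in W8 liver against 2.44 and 2.08 FPKM in P1 liver. B cell genes had 1 of 12 lower (Blk, -0.85 ± 0.19; median -0.78), myeloid and macrophage genes 3 of 18 (Mpo, -1.86 ± 0.38; Cx3cr1, -1.62 ± 0.26; Marco, -1.07 ± 0.25; median -0.55) and erythroid genes 1 of 11 (Ank1, -1.45 ± 0.18; median -1.05). The B cell and erythroid counts are at the share of all genes that passed as lower. Adjusted p of the genes named here lay between 0.00915 and 0.0426 (limma). Leaving out W8 heart replicate 2, the counts were 11 T cell, 11 lymphoid factor, 13 pan-leukocyte, 7 B cell, 6 myeloid and 5 erythroid genes, beside 21.2% of all genes as lower.

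Summed over the pan-leukocyte, T cell, myeloid and erythroid lists, the liver levels were highest at P1. The 19 pan-leukocyte genes summed to 10.1 and 9.31 FPKM in W8 liver, 21.8 and 22.2 FPKM in P1 liver and 11.97 FPKM in E14 liver, while the 20 T cell genes summed to 11.3 and 10.8, 19.3 and 18.6, and 11.0 FPKM in those libraries. The myeloid list of 19 genes summed to 13.2 in both W8 liver libraries, 20.2 and 21.5 FPKM in P1 liver and 10.6 FPKM in E14 liver, and the erythroid list of 11 genes to 7.30 and 7.91, 13.1 and 13.4, and 9.43 FPKM. No gene of these lists was at 0 in E14 or W8 liver, and only Lat was in a P1 liver library, replicate 1. The part of any 1 blood cell type in the values of Ikzf1, Cd3d and Ptprc was not tested. ESC, which hold no blood cells, summed to 17.2 and 17.2 FPKM over the pan-leukocyte list and 22.4 and 20.1 FPKM over the T cell list, so these sums are not at 0 without such cells. In heart the pan-leukocyte list summed to 14.57 and 13.30 FPKM at P1, 9.97 FPKM at E14, and 10.76 and 12.46 FPKM at W8. The T cell list summed to 18.69 and 15.58, 12.36, and 13.98 and 14.45 FPKM in those libraries. Both lists were thus highest at P1 in heart too, while the myeloid and erythroid sums of P1 and W8 heart overlapped. P1 and ESC libraries were read from both ends and E14 and W8 libraries from 1 end. The part of read format in these sums was not tested.

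Of 13 hepatocyte genes 2 were higher in W8 liver than in P1 liver and 11 did not pass, while 0.934% of all genes passed as higher. The 2 were Tdo2 (2.40 ± 0.32, adjusted p = 0.0110, limma) and Cps1 (0.85 ± 0.17, adjusted p = 0.0272), enzymes of tryptophan breakdown and of the urea cycle. Of the 11 others, 4 had negative values: Alb (-1.82 ± 0.63), which encodes albumin, Ttr (-1.26 ± 0.64), Pck1 (-0.54 ± 0.36) and Cyp7a1 (-0.07 ± 0.46). The list median was 0.37. The counts were 4 higher and 2 lower without W8 heart replicate 2, beside 3.72% and 21.2% of all genes. Cardiomyocyte genes had 1 of 12 lower (Actn2, -1.11 ± 0.17) and stem cell genes 1 of 8 (Lin28a, -1.41 ± 0.29), against 8.91% of all genes as lower.

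**Figure D4:**
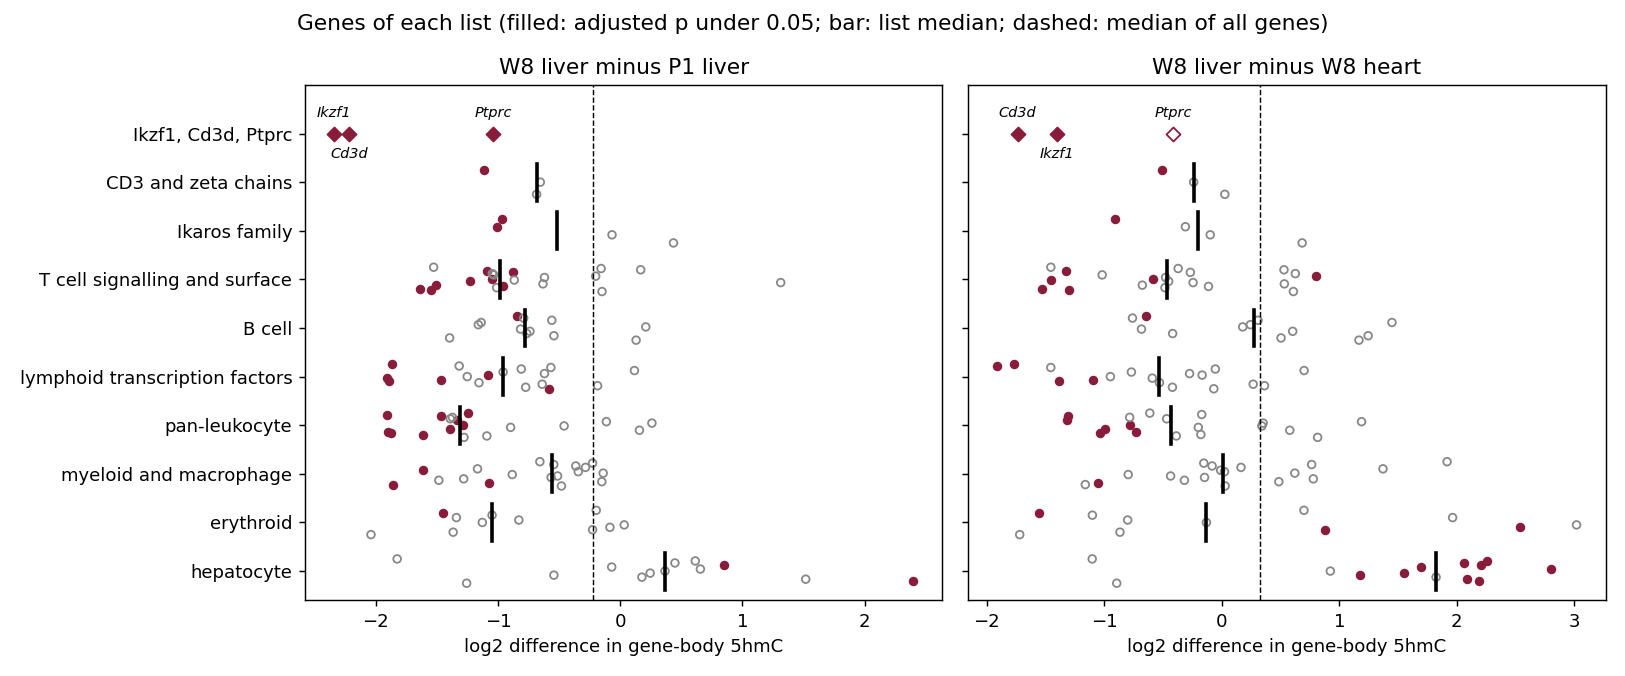
Log2 difference in gene-body 5hmC (x axis) of each tested gene in the lists (rows), with Ikzf1, Cd3d and Ptprc as diamonds in the top row, for W8 liver minus P1 liver (left) and W8 liver minus W8 heart (right). Filled points have an adjusted p under 0.05 (limma), black bars are list medians and the dashed line is the median of all genes (-0.23 left, 0.32 right); Ikzf1 and Cd3d lie further left than all list genes in the left panel.

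In W8 liver against W8 heart the lists were divided. T cell genes had 5 of 20 lower and 1 higher (median -0.46), led by Rhoh (-1.53 ± 0.24), Icos (-1.45 ± 0.31), Cd5 (-1.33 ± 0.21) and Ubash3a (-1.30 ± 0.31). Lymphoid factor genes had 4 of 17 lower and 0 higher: Bcl11b (-1.91 ± 0.35), Bcl11a (-1.76 ± 0.18), Runx3 (-1.39 ± 0.23) and Runx1 (-1.10 ± 0.17). Pan-leukocyte genes had 6 of 18 lower, among them Dock2 (-1.32 ± 0.16) and Cd44 (-1.31 ± 0.19), and B cell and myeloid genes had 1 each, of 12 (Blk, -0.64 ± 0.19) and of 18 (Marco, -1.05 ± 0.25). Some pan-leukocyte genes had more 5hmC in both W8 liver libraries than in both W8 heart libraries. Among them were Lcp1 (1.34 and 1.33 against 0.675 and 1.12 FPKM) and Fermt3 (1.28 and 1.18 against 0.729 and 0.331 FPKM). Of the erythroid genes, Nfe2 (2.54 ± 0.77) and Rhag (0.88 ± 0.25) passed as higher in liver and Ank1 (-1.55 ± 0.18) as lower. Nfe2 was at 0 in the shallow W8 heart replicate 2. Over all genes 9.49% passed as lower and 21.3% as higher, so the B cell and myeloid shares of lower genes are near or below that level. Genes past the threshold as lower numbered 7 T cell, 6 lymphoid factor, 3 pan-leukocyte, 3 B cell and 4 myeloid genes without W8 heart replicate 2, beside 12.9% of all genes.

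In W8 liver against E14 liver the T cell, B cell and CD3 lists had 0 genes past the threshold by limma; at an unadjusted p under 0.05 the T cell list had 2 lower and 1 higher and the other two had 0. Of all genes 2.83% passed as lower and 17.9% as higher. Without W8 heart replicate 2 the T cell list had 5 lower and 1 higher and the B cell list 1 lower, beside 7.74% of all genes as lower and 34% as higher. Of 17 lymphoid factor genes 4 were lower, Bcl11a (-1.30 ± 0.22), Myb (-1.21 ± 0.33), Runx3 (-1.07 ± 0.28) and Runx1 (-0.85 ± 0.21), and 1 was higher. Of 18 pan-leukocyte genes 3 were lower, Dock2 (-1.28 ± 0.20), Cd44 (-0.94 ± 0.24) and Rac2 (-0.82 ± 0.24), and 6 were without W8 heart replicate 2. In the myeloid list Marco was lower (-1.26 ± 0.31) and Fcer1g higher (1.15 ± 0.32). Adjusted p of these genes lay between 0.0136 and 0.0496 (limma). In P1 liver against P1 heart, where Ikzf1 and Ptprc fell short of the threshold, Btk (1.11 ± 0.20), Rac2 (1.50 ± 0.19) and Cx3cr1 (1.58 ± 0.26) were the only genes of the B cell, pan-leukocyte and myeloid lists to pass, all higher in liver, as were 1.93% of all genes. The T cell and lymphoid factor lists had 0 by limma; at an unadjusted p under 0.05 they had 6 and 4 higher and 1 lower each. Without W8 heart replicate 2 the higher genes were 4 T cell, 1 lymphoid factor, 2 B cell, 5 pan-leukocyte and 6 myeloid genes, beside 16.5% of all genes.

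Genes whose level followed each of the 3 most closely were sought among all 13484 gene bodies by Pearson's r of log2 levels over the 12 libraries, as a description. The 5 nearest to Ikzf1 included Ptger3 (r = 0.964), Samsn1 (0.962), Lcp2 (0.945) and Sfpi1 (0.932). Sfpi1 is the older name of the PU.1 transcription factor gene Spi1 of blood cells, Samsn1 encodes an adaptor protein of lymphocytes, and Ptger3 a prostaglandin receptor. Of these 5, 4 stayed among the nearest 5 without W8 heart replicate 2. Nearest to Cd3d were Fibcd1 (0.968), Unc13d (0.947), Hvcn1 (0.941), Slc28a3 (0.934) and Colec11 (0.933), of which 1 stayed. Unc13d acts in granule release of killer lymphocytes, Hvcn1 is a proton channel and Slc28a3 a nucleoside transporter. Nearest to Ptprc were Mtap2 (0.933), Cd200r1 (0.922), 2610018G03Rik (0.912), Il18r1 (0.897) and Bank1 (0.892), of which 2 stayed. Cd200r1 and Il18r1 encode receptors of leukocytes, Bank1 a B cell scaffold and Mtap2 a microtubule protein of neurons. Among themselves Ikzf1 and Ptprc had r = 0.80, Ikzf1 and Cd3d 0.61 and Cd3d and Ptprc 0.33 (n = 12 libraries, which share 7 groups and 2 read formats).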

How the data were processed

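5hmC was measured by pull-down in 12 libraries of 7 groups; per the labels' protocols, 5hmC was tagged with an azide glucose, coupled to biotin and captured on streptavidin. The submitters' processing notes name Bowtie2 and mm9; the sources used here give neither the version of Bowtie2 nor the read counter. The authors deposited 1 table per library with the FPKM of each promoter window and gene body, per the file headers; 0 per-sample columns were unused. Low FPKM values stepped by whole reads (100% within 0.01 reads), which gave depth; single-end libraries had 2 step sizes, so their reads are approximate.

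Gene bodies were analysed as log2(FPKM + 0.0746); that added value is the median FPKM divided by 10 and understates changes of low genes. Of 13581 genes, 23 had no coordinates and 9 a body of length 0 or less; a mean of at least 0.0809 FPKM left 13484. Promoter windows used 0.0723 and 0.0739 and left 13504. limma 3.58.1 (R 4.3.3) fitted 7 group means with 5 residual degrees of freedom and a variance trend, and p-values were adjusted by Benjamini-Hochberg within each of 13 comparisons at 0.05. The fit was tested on simulated data. E14 groups were assumed to vary like the others. The planned design allowed for counts; the values were FPKM, so limma was used.

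The genes, lists and tests were chosen with earlier results of these data known. Besides the 3 genes, at most the 4 largest changes past the threshold in each list are named, the 5 nearest genes by correlation, and all members of families of 5 or fewer; some genes that meet this rule are not reported here. Chromosomes and promoter sequences come from RefSeq (GRCm38.p6), where 12378 of 13558 symbols matched; mm9 coordinates count from 1. Alternatives were a pseudocount of 0.373, no filter, promoter windows, median centring, quantile normalization, array weights, a replicate block and each replicate left out.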

Additional observations from a re-analysis of the deposited data

Results flagged for a closer look

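For Ikzf1 the change from E14 to W8 differed between liver and heart by a direct test. The value of (W8 liver minus W8 heart) minus (E14 liver minus E14 heart) was -2.83 ± 0.65 on the log2 scale (adjusted p = 0.0349, limma, 12 libraries). Liver held 0.121 and 0.144 FPKM at W8, against 0.649 FPKM at E14, and heart held 0.285 and 0.758 FPKM at W8, against 0.195 FPKM at E14. Both W8 liver libraries lay below E14 liver and both W8 heart libraries above E14 heart. E14 has 1 library per tissue, and 14.8% of all genes passed the same test. The value was -2.22 ± 0.32 without the shallow W8 heart replicate 2 and still passed. It lost the call without either W8 liver library (-2.91 to -2.75), after which the test is on 1 W8 liver sample, and in promoter windows (-2.80).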

How the results depend on the processing

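The results depend on depth and on the small number of libraries: no group has more than 2, the Cd3d body holds 1 to 23 reads per library, promoter windows hold 0 to 35 reads for the 3 genes, and W8 heart replicate 2 is shallow. A filter on low values against none changed no call of the 3 genes. Of 456 values of the 3 genes recomputed under the alternatives, 373 kept their direction and their side of the threshold. With the sign kept, 34 lost the threshold and 23 gained it. The other 26 turned sign, among them some that also lost the threshold. The cause was not tested unless stated. Fits without a library leave a group with 1 sample, which is assumed to vary like the other groups.

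Promoter windows in place of gene bodies turned the sign of Cd3d (log2 0.046 in liver minus heart over the 3 ages, -1.40 in P1 liver minus P1 heart, 0.25 in W8 liver minus W8 heart, -1.49 in P1 liver minus E14 liver, 0.16 in W8 liver minus P1 liver, -0.29 in W8 heart minus E14 heart, -1.49 in W8 heart minus P1 heart, 1.65 in the P1 to W8 change of liver minus heart and -2.69 in the E14 to P1 change of liver minus heart) and Ptprc (log2 0.15 in W8 liver minus W8 heart, -1.42 in P1 liver minus E14 liver, 0.23 in W8 liver minus P1 liver, -1.19 in P1 liver minus ESC, -2.57 in P1 heart minus ESC and -0.21 in the E14 to P1 change of liver minus heart). It ended the call of Ikzf1 (log2 -1.75 in W8 liver minus W8 heart, -1.38 in W8 liver minus E14 liver, -2.49 in W8 liver minus P1 liver and -2.80 in the E14 to W8 change of liver minus heart). With the sign turned, Cd3d also lost its calls in W8 liver minus W8 heart, P1 liver minus E14 liver and W8 liver minus P1 liver. Ptprc likewise lost its calls in W8 liver minus P1 liver and P1 liver minus ESC. It gave 0 genes past the threshold in liver minus heart over the 3 ages, 1 in P1 liver minus P1 heart, 1 in W8 liver minus W8 heart, 0 in W8 liver minus E14 liver, 0 in P1 liver minus E14 liver, 1 in W8 liver minus P1 liver, 1 in W8 heart minus P1 heart, 22 in P1 liver minus ESC, 10 in P1 heart minus ESC, 0 in the P1 to W8 change of liver minus heart and 0 in the E14 to W8 change of liver minus heart.

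Centring each library on its median turned the sign of Ikzf1 (log2 -0.23 in P1 liver minus E14 liver and -0.41 in the E14 to P1 change of liver minus heart) and Ptprc (log2 -0.32 in P1 liver minus E14 liver and -0.33 in the E14 to P1 change of liver minus heart). It ended the call of Cd3d (log2 1.14 in P1 liver minus E14 liver). It brought past the threshold Cd3d (log2 -2.57 in the E14 to W8 change of liver minus heart) and Ptprc (log2 -0.73 in W8 liver minus W8 heart, -1.10 in W8 liver minus E14 liver, 0.60 in P1 heart minus ESC and -1.48 in the E14 to W8 change of liver minus heart). It gave 147 genes past the threshold in P1 liver minus P1 heart, 1641 in W8 liver minus E14 liver, 203 in P1 liver minus E14 liver, 773 in W8 liver minus P1 liver and 1139 in the E14 to W8 change of liver minus heart.

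Quantile normalization turned the sign of Ikzf1 (log2 -0.38 in P1 liver minus E14 liver and -0.75 in the E14 to P1 change of liver minus heart), Cd3d (log2 0.13 in W8 liver minus E14 liver) and Ptprc (log2 -0.045 in the E14 to P1 change of liver minus heart). It ended the call of Ikzf1 (log2 -2.33 in W8 liver minus E14 liver and -1.95 in W8 liver minus P1 liver), Cd3d (log2 1.91 in P1 liver minus E14 liver) and Ptprc (log2 -0.66 in W8 liver minus P1 liver). It gave 658 genes past the threshold in W8 liver minus E14 liver, 0 in P1 liver minus E14 liver, 383 in W8 liver minus P1 liver, 1 in W8 heart minus P1 heart, 1 in the P1 to W8 change of liver minus heart and 473 in the E14 to W8 change of liver minus heart.

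Weighting each library by limma's array weights ended the call of Ikzf1 (log2 -1.40 in W8 liver minus W8 heart) and Cd3d (log2 -1.74 in W8 liver minus W8 heart). The weights were equal within each group, at 0.165 for both W8 heart libraries and 3.97 for both W8 liver libraries. They therefore weigh groups and do not set the shallow W8 heart replicate 2 apart from replicate 1. It brought past the threshold Ikzf1 (log2 1.58 in P1 liver minus P1 heart and 1.28 in P1 liver minus ESC) and Ptprc (log2 -0.59 in W8 liver minus E14 liver). It gave 1305 genes past the threshold in P1 liver minus P1 heart, 474 in W8 liver minus W8 heart, 7331 in W8 liver minus E14 liver, 6972 in P1 liver minus E14 liver, 4318 in W8 liver minus P1 liver, 0 in W8 heart minus P1 heart, 4582 in P1 liver minus ESC, 3621 in P1 heart minus ESC, 0 in the P1 to W8 change of liver minus heart and 1267 in the E14 to P1 change of liver minus heart.

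A pseudocount of 0.373 in place of 0.0746 brought past the threshold Ikzf1 (log2 0.88 in P1 liver minus ESC) and Cd3d (log2 -0.87 in P1 heart minus ESC). It gave 612 genes past the threshold in P1 liver minus P1 heart, 0 in W8 heart minus P1 heart and 6 in the P1 to W8 change of liver minus heart.

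Centring also moved the split of calls. Counts of genes higher and lower were 289 and 484 after centring, against 126 and 1201, in W8 liver minus P1 liver, and 1357 and 2212, against 2871 and 1280, in W8 liver minus W8 heart. They were 467 and 1174, against 2414 and 381, in W8 liver minus E14 liver, and 6 and 197, against 3421 and 102, in P1 liver minus E14 liver. In P1 liver minus P1 heart they were 52 and 95, against 260 and 47, and in P1 heart minus ESC 1521 and 669, against 755 and 958. Over the 3 ages they were 661 and 1115, against 866 and 709, and in the E14 to W8 change of liver minus heart 236 and 903, against 1711 and 290.

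Replicate numbers are shared between groups in the labels, but samples with the same number did not deviate together: over 10 pairs of groups the correlation of their deviations ran from -0.011 to 0.042. The fit with the replicate number as a block changed no call of the 3 genes. With the block 5 genes passed in P1 liver minus P1 heart, 0 in W8 heart minus P1 heart and 1 in the P1 to W8 change of liver minus heart, against 307, 2 and 2 without it.

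Leaving out each library of a replicated group in the comparison, and W8 heart replicate 2 from every fit, gave the ranges that follow. Cd3d turned sign without W8 liver replicate 2 in W8 liver minus E14 liver (0.0076) and without ESC replicate 2 (0.023) or P1 liver replicate 2 (0.12) in P1 liver minus ESC. Ikzf1 ranged from 0.33 to 0.74 in liver minus heart over the 3 ages, 1.44 to 1.71 in P1 liver minus P1 heart, -2.01 to -0.80 in W8 liver minus W8 heart and -1.89 to -1.73 in W8 liver minus E14 liver. The range was -2.48 to -2.21 in W8 liver minus P1 liver, 0.41 to 1.63 in W8 heart minus E14 heart, 0.034 to 1.25 in W8 heart minus P1 heart and 1.14 to 1.42 in P1 liver minus ESC for Ikzf1. The range was -3.59 to -2.38 in the P1 to W8 change of liver minus heart and -3.43 to -2.22 in the E14 to W8 change of liver minus heart for Ikzf1. Cd3d ranged from -2.06 to -1.42 in W8 liver minus W8 heart, -0.63 to 0.0076 in W8 liver minus E14 liver, 1.55 to 2.27 in P1 liver minus E14 liver and -2.58 to -1.86 in W8 liver minus P1 liver. The range was 1.53 to 1.71 in W8 heart minus E14 heart, -0.60 to 0.12 in P1 liver minus ESC, -1.38 to -0.85 in P1 heart minus ESC and -2.97 to -2.25 in the P1 to W8 change of liver minus heart for Cd3d. The range was -2.25 to -1.61 in the E14 to W8 change of liver minus heart for Cd3d. Ptprc ranged from 0.50 to 0.86 in P1 liver minus P1 heart, -0.60 to -0.58 in W8 liver minus E14 liver, -1.22 to -0.86 in W8 liver minus P1 liver and 0.91 to 1.27 in P1 liver minus ESC. The range was -1.27 to -0.91 in the P1 to W8 change of liver minus heart for Ptprc. Among values that passed in none of these fits, the range was 0.52 to 1.24 in P1 liver minus P1 heart, -0.34 to -0.10 in liver minus heart over the 3 ages, 0.24 to 0.55 in W8 heart minus P1 heart and 0.32 to 1.04 in the E14 to P1 change of liver minus heart for Cd3d. It was 0.26 to 0.63 in P1 liver minus E14 liver, 0.031 to 0.079 in W8 heart minus P1 heart and 0.059 to 0.42 in the E14 to P1 change for Ptprc, and -0.44 to -0.16 in P1 heart minus ESC and 0.018 to 0.29 in the E14 to P1 change for Ikzf1. Genes past the threshold numbered 236 to 3971 in liver minus heart over the 3 ages, 0 to 3021 in P1 liver minus P1 heart, 0 to 6255 in W8 liver minus W8 heart, 0 to 5630 in W8 liver minus E14 liver and 0 to 6743 in P1 liver minus E14 liver. They came to 0 to 3355 in W8 liver minus P1 liver, 0 to 3615 in W8 heart minus E14 heart, 0 to 5157 in W8 heart minus P1 heart, 0 to 4526 in P1 liver minus ESC and 0 to 4468 in P1 heart minus ESC. Their number was 0 to 3929 in the P1 to W8 change of liver minus heart, 0 to 5278 in the E14 to W8 change of liver minus heart and 0 to 1093 in the E14 to P1 change of liver minus heart. Of the 5 genes nearest to Ikzf1, Cd3d and Ptprc, 4, 1 and 2 stayed without W8 heart replicate 2.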

Other observations

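In P1 liver minus E14 liver 25.4% of all genes passed as higher, and the median gene was 0.71 higher in P1 liver on the log2 scale. With each library centred on its median, 6 of all genes passed as higher and 197 as lower, against 3421 and 102 without centring, so the direction of these calls depends on the scaling. Of 20 T cell genes 4 were higher in P1 liver and 0 lower, among them Fyn (0.99 ± 0.19), Cd5 (0.89 ± 0.25) and Cd6 (0.85 ± 0.23). Of 17 lymphoid transcription factor genes 3 were higher: Spib (1.41 ± 0.37), Tcf7 (1.41 ± 0.17), a factor of early T cells, and Irf8 (1.16 ± 0.25). Pan-leukocyte genes had 3 of 18 higher, Cd37 (1.24 ± 0.36), Itgb2 (1.13 ± 0.32) and Rac2 (1.08 ± 0.24), and myeloid genes 3 of 18, Fcer1g (1.29 ± 0.32), Cx3cr1 (1.16 ± 0.32) and Csf1r (1.03 ± 0.29), the receptor of macrophage growth factor. None of these 4 counts is above the share of all genes. Adjusted p of these genes lay between 0.0181 and 0.0434 (limma). Without W8 heart replicate 2 the counts were 10 T cell, 11 lymphoid factor, 8 pan-leukocyte and 6 myeloid genes, all higher, beside 48.3% of all genes. Read format differs between these ages.

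Against ESC, where 10.4% of all genes passed as higher in P1 liver and 5.05% as lower, P1 liver had 3 of 18 pan-leukocyte genes higher and 0 lower: Lcp1 (1.36 ± 0.23), Cd44 (1.10 ± 0.19) and Rac2 (0.76 ± 0.19). Ikzf2 was higher too (0.84 ± 0.20), whereas the B cell factor gene Pax5 (-1.01 ± 0.25) and, among lymphoid factors, Eomes (-1.84 ± 0.47) and Bcl11b (-1.42 ± 0.35) were lower in P1 liver and Tcf12 (1.12 ± 0.15) higher. Adjusted p of these genes lay between 0.00902 and 0.0416 (limma). The pan-leukocyte counts were 5 higher and 2 lower without W8 heart replicate 2, beside 20.8% and 12.8% of all genes.

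In the E14 to W8 change of liver minus heart, the test that Ikzf1 passed, 2.15% of all genes passed as negative and 12.7% as positive. Genes past the threshold as negative numbered 1 of 20 in the T cell list, 3 of 17 lymphoid factor, 1 of 18 pan-leukocyte, 1 of 18 myeloid and 1 of 11 erythroid genes. Rhoh was at -1.88 ± 0.42, Bcl11a at -2.02 ± 0.31, Runx3 at -1.76 ± 0.40, Runx1 at -1.45 ± 0.30, Dock2 at -1.95 ± 0.28, Marco at -1.73 ± 0.43 and the erythrocyte ankyrin gene Ank1 at -2.15 ± 0.31, all past the threshold (limma). Among pan-leukocyte genes Hcls1 was at 1.05 ± 0.26 in the other direction, and the receptor phosphatases Ptprg (1.99 ± 0.45), Ptprk (1.44 ± 0.36) and Ptprf (1.13 ± 0.30), 3 of 17, were positive and past the threshold.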
